A study of Mus musculus with 6 samples.

Results

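Expression of the Toll-like receptor genes Tlr1, Tlr2, Tlr3, Tlr4, Tlr6, Tlr7, Tlr8, Tlr9 and Tlr13 and of Cd14, which encodes a co-receptor for bacterial lipopolysaccharide, was measured in Ly6G+ dendritic cells (DC) grown from mouse bone marrow and set against Ly6G- DC of the same cultures. Every probe set (a group of short probes that reports 1 transcript) was taken whose platform annotation gave a single gene symbol, and that symbol was 1 of these 10. This selected 16 of the 45101 probe sets on the Affymetrix array, 4 of them for Tlr4, 3 for Tlr7, 2 for Tlr3 and 1 for each other gene. Probe sets of 1 gene share their target and are not replicates of each other.

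The Ly6G+ DC group had 3 samples of CD11c+, MHC class II+ cells that carried Ly6G, a surface protein typical of neutrophils. The Ly6G- DC group had 3 samples of CD11c+, MHC class II+ cells without it. Both came from C57BL/6 bone marrow kept for 6 days in 10 ng/ml GM-CSF, a growth factor that drives myeloid precursors to dendritic cells in culture, and both were sorted at the same time from shared cultures. Samples were numbered 1 to 3 in each group, with 1 array per sample, and no genotype other than the strain and no stimulus other than GM-CSF was given, nor the age of the mice. Nothing in the labels ties the 3 samples of a group to different cultures or mice, and the p-values given here cover the spread among these arrays alone, which could be technical. Of the genes behind the sort, Itgax (CD11c) had signals of 2728 to 7884 on the Ly6G+ arrays and 5610.2 to 9630.2 on the Ly6G- arrays, and H2-Ab1 (an MHC class II chain) lay above the 40th percentile of all 6 arrays. Ly6g itself is not analysed here.

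Toll-like receptors are membrane proteins that bind conserved microbial molecules and, through adaptors such as MyD88 and TRIF, switch on NF-kB and interferon regulatory factors. Those that bind bacterial lipids and proteins sit at the cell surface, and those that bind nucleic acids sit in endosomes, to which the chaperone UNC93B1 brings them. CD14 hands lipopolysaccharide to TLR4 and its partner MD-2. Subsets of myeloid cells differ in the receptors they carry: TLR3, for example, is known from the cross-presenting type of mouse conventional dendritic cell, and neutrophils carry TLR2 and TLR4.

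The DNA before 3 of these genes is shown because Tlr2 and Tlr13 were the genes with an entry in the RefSeq promoter table (build GRCm38.p6) whose signals did not overlap between the groups, and Tlr3 was the gene with no probe set that passed the filter on dim signals. Each line gives the 250 bases before the gene start, 5′ to 3′ on the coding strand. Capitals mark letters that match NF-kB (GGGNNNTTCC), PU.1 (GAGGAAGT), AP-1 (TGANTCA), ISRE (GAAANNGAAA) or C/EBP (TTGCNNAA) on either strand.
Tlr2, chr3:83841609-83841858, minus strand: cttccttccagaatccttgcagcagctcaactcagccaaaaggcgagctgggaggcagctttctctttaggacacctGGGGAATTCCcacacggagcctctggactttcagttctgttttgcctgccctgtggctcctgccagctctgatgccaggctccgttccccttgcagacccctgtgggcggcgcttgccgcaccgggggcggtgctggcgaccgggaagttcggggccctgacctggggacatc
Tlr13, chrX:106143025-106143274, plus strand: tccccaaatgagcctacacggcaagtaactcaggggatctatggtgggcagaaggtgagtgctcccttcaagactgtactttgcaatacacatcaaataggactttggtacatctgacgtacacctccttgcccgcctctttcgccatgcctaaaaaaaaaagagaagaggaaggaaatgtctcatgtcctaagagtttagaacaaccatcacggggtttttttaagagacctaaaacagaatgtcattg
Tlr3, chr8:45410381-45410630, minus strand: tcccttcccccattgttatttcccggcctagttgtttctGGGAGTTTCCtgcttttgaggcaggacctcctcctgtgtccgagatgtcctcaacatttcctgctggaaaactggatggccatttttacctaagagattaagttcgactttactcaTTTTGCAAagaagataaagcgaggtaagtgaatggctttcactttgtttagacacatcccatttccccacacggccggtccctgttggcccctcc

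NF-kB letters stood in the windows of both Tlr2 and Tlr3, from base -173 to -164 before Tlr2 and from -211 to -202 before Tlr3. C/EBP letters stood before Tlr3, and none of the motifs matched before Tlr13. Of 32851 promoter windows of this length in the table, 4.65% held the NF-kB letters, 2.44% those of PU.1, 6.75% those of AP-1, 2.98% those of ISRE and 9.56% those of C/EBP. The guanine and cytosine content of the windows was 62.8% for Tlr2, 44.4% for Tlr13 and 48.0% for Tlr3. By their order along the chromosomes, Tlr1 and Tlr6 are next to each other among protein-coding genes, and so are Tlr7 and Tlr8.

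Values were linear signals, scaled by the authors so that all 6 arrays had the same mean after 2% was trimmed at either end. The arrays fell on 2 sides by their hybridization controls, transcripts spiked in before hybridization, which cut across the groups: Ly6G+ DC 2, Ly6G- DC 2 and Ly6G- DC 3 had geometric mean control signals of 6688 to 12842, and the other arrays 1529 to 2039. The same 3 arrays had ratios of 3′ to 5′ signal of Actb, a measure of RNA or labelling quality, of 3.98 to 6.85, against 1.17 to 1.49. The log2 ratio averaged 0.94 ± 0.93 over the Ly6G+ arrays and 1.90 ± 1.46 over the Ly6G- arrays (SD, n = 3), with p = 0.4 in a two-sided exact permutation test, which cannot go below 0.1 with 3 arrays against 3. The title of number 1 in each group also named the array differently from those of numbers 2 and 3. Differences of the tested receptor and Cd14 probe sets are therefore also given within these 2 sides, where 2 arrays of a group stand against 1 of the other.

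No probe set of the 10 genes passed the test. Groups were compared with limma on log2(signal + 16) over the 28254 probe sets above the 40th percentile of their array on at least 3 of the 6 arrays, a filter blind to the groups, with Benjamini-Hochberg adjustment over all of them and an adjusted p under 0.05 as the threshold. Limma called 0 of the 13 members that passed the filter, with a smallest adjusted p of 0.836, and 0.0% of all tested probe sets. At an unadjusted p under 0.05, 6 of the 13 were higher in Ly6G+ DC, where 2.75% of all probe sets were, and 0 were lower, where 2.87% were. For 5 of the 13, the lowest Ly6G+ array exceeded the highest Ly6G- array, against 4.49% of all probe sets, and 0 were lower on every Ly6G+ array, against 7.24%. Of the 6, 3 are probe sets of Tlr4, and of the 5, 2 are. Tlr7 1422010_at is in both counts and was above the 40th percentile on 3 Ly6G+ arrays and 1 Ly6G- array. Tlr4 1442827_at, in the 6, was above it on 3 Ly6G+ and 2 Ly6G- arrays. Both passed the filter only with Ly6G+ arrays counted, the group where they were higher. Log2 fold changes, as Ly6G+ over Ly6G-, were positive for 11 of the 13, against 45.0% of all probe sets, with a median of 0.67 against -0.06. Among the 11, Tlr7 1449640_at (3 Ly6G+ and 2 Ly6G- arrays above the 40th percentile) and 1419848_x_at (2 and 1) also passed only with Ly6G+ arrays counted. With the arrays scaled to a common median instead, 68.1% of all probe sets were positive and the medians were 0.98 for the members and 0.23 for all. Without the filter the median of all 16 members was 0.39, against -0.13 for all 45037 probe sets. Positive values were then found for 11 of the 16, against 40.2% of all probe sets. The 10 genes were chosen with earlier results of these data known, so these counts are a description and not a test.

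**Figure D1:**
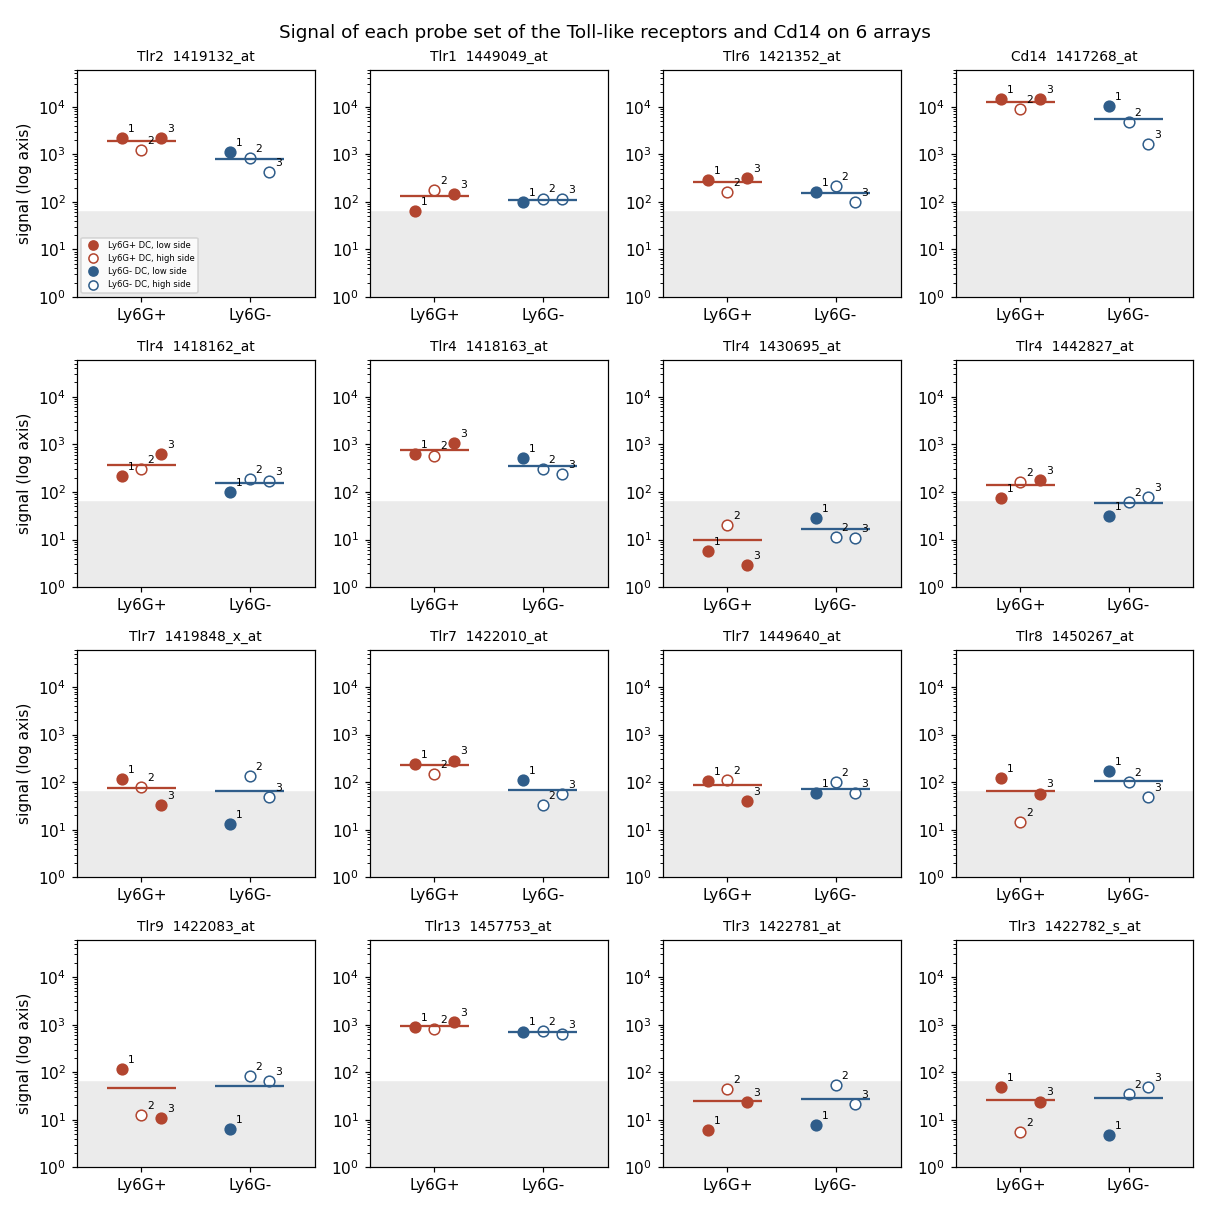
Signal on a log axis for each of the 16 probe sets, with Ly6G+ DC left and Ly6G- DC right, 1 point per array marked with its number, a line at the group mean, and filled points for the low and open points for the high hybridization control side. The grey band reaches up to the highest 40th percentile of the 6 arrays (61.7). Cd14 lies between 1642 and 14736, and both Tlr3 probe sets and Tlr4 1430695_at lie in the band on all arrays.

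The surface receptor for bacterial lipoproteins, Tlr2, was bright in both populations. Its signals, given here and below in the order of samples 1, 2 and 3, were 2163, 1222 and 2185 on the Ly6G+ arrays, against 1126, 839 and 415 on the Ly6G- arrays. All 3 Ly6G+ arrays were higher than all Ly6G- arrays, though Ly6G+ DC 2 exceeded Ly6G- DC 1 by little. Mean signal was 1857 ± 549 for Ly6G+ DC and 793 ± 358 for Ly6G- DC (SD, n = 3). The log2 fold change was 1.27 ± 0.41 (SE), with a 95% interval of 0.37 to 2.18 and an adjusted p of 0.836 by limma. It was 0.94 within the low and 1.03 within the high side of the hybridization controls.

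TLR2 works as a pair with TLR1 or TLR6, which set the kind of lipopeptide that is bound, and neither partner separated the groups. Tlr6 had signals of 292, 163 and 319 on the Ly6G+ arrays, against 160, 212 and 98.4 on the Ly6G- arrays. The groups overlapped, since Ly6G+ DC 2 lay below Ly6G- DC 2. The log2 fold change was 0.67 ± 0.39 (SE, limma adjusted p = 0.839), with a 95% interval of -0.21 to 1.54. Within the sides it was 0.87 (low) and 0.15 (high), and without Ly6G- DC 3 it was 0.40 ± 0.41. Tlr1 had signals of 64.5, 179.6 and 145.8 on the Ly6G+ arrays, against 100.9, 117.2 and 116.2 on the Ly6G- arrays, so the Ly6G- arrays lay within the range of the Ly6G+ ones. Its log2 fold change was 0.10 ± 0.42 (SE), with a 95% interval of -0.84 to 1.04, and its values within the sides differed in sign, at -0.03 (low) and 0.56 (high). Across the 6 arrays Tlr2 lay between the 83.5th and 96.4th percentile of all probe sets, Tlr6 between the 52.3rd and 79.6th, and Tlr1 between the 48.3rd and 68.9th. Whether the difference of Tlr2 exceeded that of its partners was not tested.

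Cd14 was among the brightest probe sets on each array, between the 95.4th and 99.6th percentile. Its signals were 14736, 8943 and 14478.5 on the Ly6G+ arrays, against 10297.5, 4755 and 1642 on the Ly6G- arrays. The groups overlapped, because Ly6G- DC 1 lay above Ly6G+ DC 2. Mean signal was 12719 ± 3273 for Ly6G+ DC and 5565 ± 4384 for Ly6G- DC (SD, n = 3), and the log2 fold change was 1.52 ± 0.58 (SE), with a 95% interval of 0.22 to 2.81 and a limma adjusted p of 0.836. The signal followed the hybridization control side as well: each of the 3 low-side arrays was above each of the 3 high-side arrays, whatever its group. Within the low side the log2 fold change was 0.50 and within the high side 1.67, so its size differed between the sides. Without Ly6G- DC 3, the dimmest array for Cd14, it was 0.82 ± 0.48, and without Ly6G- DC 1 it was 2.14 ± 0.45 with a limma adjusted p of 0.099986.

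Tlr4, the lipopolysaccharide receptor that CD14 serves, was read by 4 probe sets. Signals of 1418163_at were 633, 582 and 1045 on the Ly6G+ arrays, against 514, 303 and 243 on the Ly6G- arrays. Signals of 1418162_at were 212, 307 and 614 on the Ly6G+ arrays, against 99.5, 183.7 and 171.4 on the Ly6G- arrays. For both, every Ly6G+ array was above every Ly6G- array and Ly6G+ DC 3 was the highest. The annotation ties these 2 to the same transcript record, so they are not independent. Their log2 fold changes were 1.08 ± 0.37 and 1.14 ± 0.43 (SE), each with a limma adjusted p of 0.836. Within the low and high side they were 0.65 and 1.06 for 1418163_at, and 1.72 and 0.74 for 1418162_at. Without Ly6G+ DC 3, the value of 1418162_at was 0.74 ± 0.41.

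The other 2 Tlr4 probe sets were dim. Signals of 1442827_at were 75.5, 162.3 and 178.8 on the Ly6G+ arrays, against 30.6, 62.2 and 79.6 on the Ly6G- arrays, where Ly6G- DC 3 overlapped Ly6G+ DC 1. Of the Ly6G- arrays, number 1 was under its 40th percentile. With that array set at the percentile, the average fold change between the groups was 1.82, which is not a bound for single arrays. The log2 fold change was 1.06 ± 0.48 (SE, limma adjusted p = 0.836), and 1.52 and 1.04 within the low and high side. Signals of 1430695_at were 5.76, 20.6 and 2.90 on the Ly6G+ arrays, with 27.9, 11.3 and 10.9 on the Ly6G- arrays. That probe set was under the 40th percentile on all 6 arrays and was not tested.

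**Figure D2:**
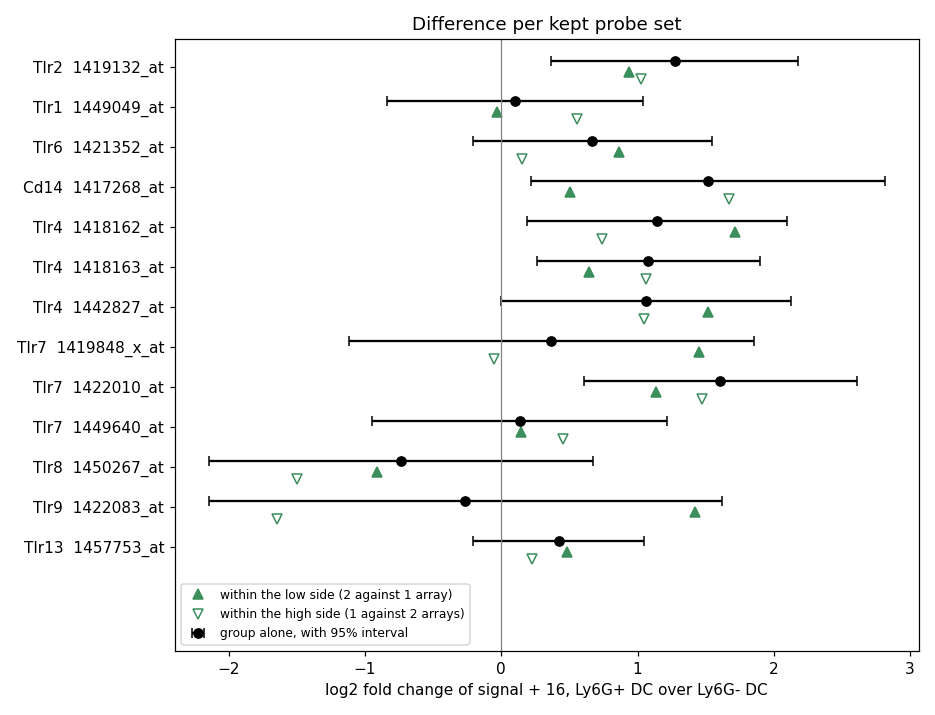
Log2 fold change of signal + 16, Ly6G+ DC over Ly6G- DC, for the 13 probe sets that passed the filter, grouped by role. Circles are limma's estimates with 95% intervals from 3 against 3 arrays, and triangles the values within either hybridization control side. The intervals of Tlr2, Cd14, 3 Tlr4 probe sets and Tlr7 1422010_at lie above 0 before adjustment, and the triangles of Tlr9 point to opposite sides of 0.

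Of the receptors for nucleic acids in endosomes, Tlr7, which binds single-stranded RNA, had 1 probe set with no overlap between groups and 2 that overlapped. Signals of 1422010_at were 243, 151 and 284 on the Ly6G+ arrays, against 110.9, 33.3 and 56.9 on the Ly6G- arrays. All Ly6G+ arrays were above the 40th percentile of their array, and of the Ly6G- arrays only number 1 was, so without the Ly6G+ arrays it would not have passed the filter. Its log2 fold change was 1.61 ± 0.45 (SE), with a 95% interval of 0.61 to 2.61, an unadjusted p of 0.00490 and a limma adjusted p of 0.836. It was 1.13 within the low and 1.47 within the high side.

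The other Tlr7 probe sets overlapped between the groups. Signals of 1449640_at were 103.4, 112.8 and 40.02 on the Ly6G+ arrays, against 57.8, 101.6 and 59.0 on the Ly6G- arrays, with a log2 fold change of 0.13 ± 0.49 (SE), and of 0.15 within the low and 0.46 within the high side. Signals of 1419848_x_at were 114.7, 79.4 and 33.4 on the Ly6G+ arrays, against 13.3, 134.2 and 49.3 on the Ly6G- arrays, with a log2 fold change of 0.37 ± 0.67 (SE). Within the low side this probe set had 1.45, and within the high side -0.055. In both, Ly6G+ DC 3 was the lowest array of its group, while it was the highest for 1422010_at. The annotation ties both to 1 transcript record, different from that of 1422010_at, and the ending _x_at is the maker's mark for probes that may also bind other transcripts. Over all 6 arrays, the groups were apart on 1 of the 3 Tlr7 probe sets.

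Tlr13, which in mouse recognizes bacterial ribosomal RNA, lay between the 88.7th and 92.8th percentile of all probe sets. Its signals were 884, 800 and 1156 on the Ly6G+ arrays, against 717, 725 and 641 on the Ly6G- arrays. The groups did not overlap, but the difference was small, with a log2 fold change of 0.42 ± 0.28 (SE), a 95% interval of -0.20 to 1.05 and a limma adjusted p of 0.844. It was 0.49 within the low and 0.23 within the high side, and 0.27 ± 0.29 without Ly6G+ DC 3.

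Tlr8 and Tlr9 were dim, and their groups overlapped. Tlr8, the X-linked neighbour of Tlr7 and in human a receptor for RNA, had signals of 120.3, 14.6 and 57.4 on the Ly6G+ arrays, against 172.4, 100.7 and 47.9 on the Ly6G- arrays. Its log2 fold change was -0.73 ± 0.63 (SE), with a 95% interval of -2.14 to 0.68, and -0.91 and -1.50 within the low and high side. Leaving out 1 array at a time, it ranged from -1.24 without Ly6G+ DC 1 to -0.16 without Ly6G+ DC 2. Tlr9, the receptor for unmethylated CpG DNA, had signals of 118.9, 12.6 and 10.9 on the Ly6G+ arrays, against 6.497, 83.7 and 63.98 on the Ly6G- arrays. Only Ly6G+ DC 1, Ly6G- DC 2 and Ly6G- DC 3 were above the 40th percentile of their array, and its log2 fold change of -0.26 ± 0.85 (SE) took opposite signs within the sides, 1.42 (low) and -1.64 (high). The 95% intervals cover changes of more than 1 on the log2 scale in either direction for Tlr9 (-2.15 to 1.62) and downward for Tlr8. A difference of that size is therefore not excluded here.

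Tlr3, the receptor for double-stranded RNA, was near the bottom of the scale. Signals of 1422781_at were 6.03, 43.8 and 23.5 on the Ly6G+ arrays, against 7.84, 53.3 and 21.2 on the Ly6G- arrays, all under the 40th percentile of their array. Signals of 1422782_s_at were 49.5, 5.65 and 24.2 on the Ly6G+ arrays, against 4.79, 35.4 and 48.0 on the Ly6G- arrays, and Ly6G+ DC 1 alone was above that percentile. Neither passed the filter, so Tlr3 was the 1 gene of the 10 without a tested probe set. Without the filter the log2 fold changes were -0.08 ± 0.56 and -0.09 ± 0.59 (SE).

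Across the 13 tested members, Ly6G+ DC 3 was the highest array for 7 and Ly6G- DC 3 the lowest for 5, and Ly6G- DC 1 the lowest for 4. Centred on each probe set's mean, the members averaged 0.47, 0.07 and 0.42 on the log2 scale in Ly6G+ DC 1 to 3, against -0.31, -0.09 and -0.57 in Ly6G- DC 1 to 3. The groups did not overlap in this average, and Ly6G+ DC 2 and Ly6G- DC 2 were the nearest arrays of the 2 groups. Both belong to the arrays with high hybridization controls. The average weighs each probe set alike, 3 of them for Tlr4 and 3 for Tlr7, and includes those that passed the filter only with Ly6G+ arrays counted. The same average over all probe sets was not taken.

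The other genes of the pathway were taken from lists by role, in which 74 of 86 genes had a tested probe set, each gene read by its brightest. Limma called 0 of the 74, and 0.0% of all 13262 genes. At an unadjusted p under 0.05, 15 were higher in Ly6G+ DC, where 3.09% of all genes were, and 0 were lower, where 3.23% were. Signals of 16 were higher on every Ly6G+ array, against 4.97% of all genes, and 1 was lower on every Ly6G+ array, against 7.81%. Positive log2 fold changes were found for 40 of the 74, against 44.3% of all genes. Of the 15 genes under the unadjusted threshold, 10 were response genes. The lists were written with earlier results of these data known, so these counts describe the listed genes and are not a test of the lists.

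**Figure D3:**
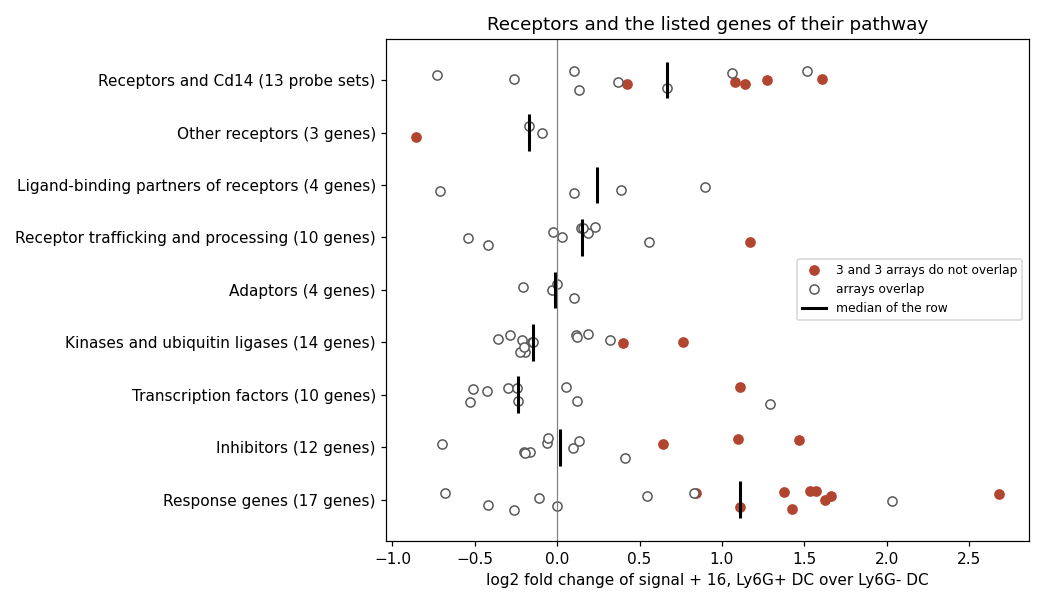
Log2 fold change of signal + 16, Ly6G+ DC over Ly6G- DC, for the 13 tested receptor and Cd14 probe sets and for 74 genes of the pathway by role. Filled points have 3 Ly6G+ arrays that do not overlap the 3 Ly6G- arrays, open points overlap, and bars are medians. Response genes have a median of 1.11, and the adaptors one of -0.02.

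Log2 fold changes were positive for 3 of 4 ligand-binding partners and 7 of 10 genes of receptor transport and processing, with medians of 0.24 and 0.15. Tlr5 and Cd180, receptors outside the 10 genes, had log2 fold changes of -0.17 ± 0.34 and -0.09 ± 0.34 (SE). Tlr12 had -0.86 ± 0.53 and was the 1 tested pathway gene with every Ly6G+ array below every Ly6G- array. Its signals were 89.1, 15.2 and 68.1 on the Ly6G+ arrays, against 113.6, 100.4 and 93.2 on the Ly6G- arrays. Lbp, whose protein carries lipopolysaccharide to CD14, had 0.90 ± 0.72 (SE) and overlapped. Ly96, which encodes MD-2, had 0.10 ± 0.36, Cd36, a co-receptor of TLR2, 0.39 ± 0.34, and Ly86, the partner of CD180, -0.71 ± 0.37 (SE). Unc93b1 had -0.03 ± 0.42. Of 10 genes of receptor transport and processing, Ctsl, a cathepsin, was the 1 with no overlap. Over all genes, 4.97% were higher and 7.81% lower on every Ly6G+ array. Ctsl signals were 8518.5, 7012 and 9656 on the Ly6G+ arrays, against 5055, 3996 and 2484 on the Ly6G- arrays. The log2 fold change of Ctsl was 1.17 ± 0.35 (SE, limma adjusted p = 0.836). Ctss and Ctsb, the list's genes with the highest mean signal, had -0.42 ± 0.48 and 0.03 ± 0.39.

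Adaptors, kinases and transcription factors held 3 tested genes without overlap, all higher in Ly6G+ DC. Over all genes, 4.97% were higher and 7.81% lower on every Ly6G+ array. All 4 tested adaptors overlapped, with Myd88 at 916, 1022 and 1149 on the Ly6G+ arrays, against 912, 1381 and 913 on the Ly6G- arrays, a log2 fold change of -0.03 ± 0.30 (SE) and Tirap at 0.10 ± 0.40. Of 14 kinases and ubiquitin ligases, Ikbke, a kinase that acts on interferon regulatory factors, and Peli2, a ubiquitin ligase, did not overlap, with log2 fold changes of 0.77 ± 0.36 and 0.40 ± 0.28 (SE). Tab2 and Tbk1, with the highest mean signals of that list, had -0.29 ± 0.41 and -0.15 ± 0.37. Of 10 transcription factors, Fos, an AP-1 subunit, did not overlap, with 1.11 ± 0.33, and the list's median was -0.24. Atf3, which encodes a stress-induced factor, had 0.05 ± 0.36.

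Inhibitors and response genes held 12 of the 16 tested pathway genes that were higher on every Ly6G+ array, where 4.97% of all genes were. Of 12 genes listed as inhibitors, Nfkbiz, an atypical regulator of NF-kB, was higher on every Ly6G+ array. Nfkbiz signals were 4665, 4056 and 8008 on the Ly6G+ arrays, against 2122, 1656 and 2010 on the Ly6G- arrays. The log2 fold change was 1.47 ± 0.34 (SE, limma adjusted p = 0.768). Irak3, which encodes the inhibitory kinase IRAK-M, had 1.10 ± 0.40, and Dusp1, a phosphatase of MAP kinases, 0.64 ± 0.31, and both did not overlap. Nfkbia, which encodes an inhibitor of NF-kB, had -0.70 ± 0.57 and overlapped. The median over the 12 was 0.02. Of 17 tested response genes, 9 did not overlap, all higher in Ly6G+ DC, and the 4 with the lowest p were Ptgs2, which encodes an inducible cyclooxygenase, Cxcl1 and Cxcl2, neutrophil-attracting chemokines, and Acod1, which makes itaconate. Their log2 fold changes were 2.68 ± 0.49, 1.66 ± 0.38, 1.57 ± 0.38 and 1.42 ± 0.37 (SE), with limma adjusted p-values of 0.414, 0.768, 0.781 and 0.836. Ccl5, a chemokine for T cells, had -0.42 ± 0.35. These response genes can also be induced by other stimuli, and no stimulus of a Toll-like receptor was part of the design.

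Markers of other cells that the gates could hold were read on the same arrays, and those of neutrophils follow the Ly6G gate. Of 16 neutrophil markers on the array, 15 were higher on every Ly6G+ array, and their summed signal was 88842 to 118350 in Ly6G+ DC against 11680 to 29613 in Ly6G- DC. Of 7 monocyte markers 4 were, with sums of 32397 to 34900 in Ly6G+ DC against 7157 to 20179 in Ly6G- DC. Of 11 conventional dendritic cell markers 6 were lower on every Ly6G+ array, with sums of 31962 to 62766 in Ly6G+ DC against 70632 to 107923 in Ly6G- DC. H2-Ab1, a gene behind the sort, was itself lower on every Ly6G+ array by its brightest probe set. Signals of that probe set were 16313, 12197 and 10093 on the Ly6G+ arrays, against 17550.5, 17389 and 21661 on the Ly6G- arrays. The groups overlapped for its other probe sets and for Itgax. How far the conventional dendritic cell sums depend on the genes of the sort was not tested. Over all tested genes, 4.97% were higher and 7.81% lower on every Ly6G+ array. Sums of 9 macrophage markers were 33956 to 44788 in Ly6G+ DC and 29922 to 56449 in Ly6G- DC, and overlapped. Sums of 6 plasmacytoid dendritic cell markers were 1565 to 2604 in Ly6G+ DC against 3633 to 3929 in Ly6G- DC, and of 6 B lymphocyte markers 408 to 464 in Ly6G+ DC against 565 to 621 in Ly6G- DC. The B lymphocyte signals were dim, and Ebf1 of that list did not pass the filter. The 40th percentile itself was 46.6, 56.8 and 36.0 on the Ly6G+ arrays, against 54.6, 59.5 and 61.7 on the Ly6G- arrays. The part of background in the B lymphocyte sums was not tested. Sums of 6 mast cell and basophil markers were 977 to 1238 in Ly6G+ DC and 1016 to 1393 in Ly6G- DC, and Fcer1a was the 1 marker of any list under the 40th percentile on all 6 arrays. The part of these markers' cells in the receptor differences was not tested. In RNA pooled over many cells, a change in the number of cells of a type and a change in RNA per cell cannot be told apart.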

How the data were processed

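The authors' deposited table held linear signal intensity per probe set, 1 column per array, scaled to a common mean after trimming 2% at either end, as found from the values. Expression Console 2.0 (Affymetrix), GCOS and MAS5 are named, with no role, per the submitters' processing notes. No detection calls were used.

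Of 45101 probe sets, 64 were controls, 34958 had 1 gene symbol in the platform annotation, 932 several and 9211 none. Signals were analysed as log2(signal + 16), which understates changes of dim genes. Probe sets above their array's 40th percentile (over all probe sets) on at least 3 of 6 arrays were tested with limma 3.58.1 in R 4.3.3 (lmFit, eBayes with an intensity trend, group alone, Benjamini-Hochberg). The fit was also run on simulated data, and no conclusion about its performance on these arrays is drawn from that run. Precision is limited by having 3 arrays a group.

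The 10 genes, the pathway lists and the marker lists were chosen with earlier results of these data known. Named pathway genes were, per list, the called ones or else up to 4 without overlap and with the lowest p, and the 2 brightest; Lbp, Ly96, Unc93b1 and Il1b fall outside that rule and were named after their values were seen. The 5 motifs were chosen after a promoter had been seen. The 2 sides were split at the widest gap in mean log2 signal of the hybridization controls.

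Alternatives were 2 other scalings, 2 pseudocounts, 2 filters, 2 variance models, 3 blocks and leaving out each array. Fits within each side were added after seeing the data.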

Additional observations from a re-analysis of the deposited data

How the results depend on the processing

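No alternative called a member: the count was 0 in each, and their lowest adjusted p by limma was 0.0999856, for Cd14 without Ly6G- DC 1. Filters, variance models and the blocks by replicate number and array name cannot move a fold change (72 of 241 values of the 13 tested members); of the other 169, 158 kept their sign. Tlr2, Tlr6, Tlr8, Tlr13, Cd14, 3 Tlr4 probe sets and Tlr7 1422010_at kept it in all they were tested in, with ranges over all alternatives of 0.87 to 1.599 for Tlr2, 1.13 to 1.97 for Tlr7 1422010_at and 0.50 to 2.14 for Cd14. Tlr1, Tlr9 and the other 2 Tlr7 probe sets did not: leaving out arrays, they ranged from -0.16 to 0.48 (Tlr1), from -1.02 to 0.15 (Tlr9), from -0.22 to 0.96 (Tlr7 1419848_x_at) and from -0.084 to 0.52 (Tlr7 1449640_at). The hybridization control sides were fitted after seeing the data, with the lone array of a group assumed to vary like the others: on the low side alone Tlr1 had -0.035 and Tlr9 1.42, and on the high side alone Tlr7 1419848_x_at had -0.055. The members' median of 0.67 was 0.98 with arrays scaled to a common median, 0.39 with no filter, 1.14 with the filter at the 60th percentile (7 members tested), 0.87 on the low side alone, and 0.40 to 0.96 leaving out each array. That common-median scaling gave a median of 0.23 over all probe sets, against -0.06 with the deposited scaling, so the members' distance from it was 0.74 against 0.73. Same-numbered samples deviated from their group means with correlations of 0.52, 0.26 and -0.04, and differently numbered samples with correlations of -0.49 to 0.32. The labels do not say that a number marks a shared culture, so the numbers were not taken as pairs. With the replicate block the lowest adjusted p of a member was 0.319, and limma called 19 of 28254 probe sets and 1 pathway gene, Ptgs2 (array name block 21 and 1, low side alone 20 and 0). Leaving out each array gave 0 to 24 probe sets and 0 to 2 pathway genes, Ptgs2 and Il1b without Ly6G- DC 1. The cause of these changes was not tested. Depth cannot be read from these signals, and dim probe sets such as Tlr3, Tlr8 and Tlr9 limit what can be seen.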
